A study of Homo sapiens with 4 samples.

Results

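The 3 RUNX transcription factor genes, RUNX1, RUNX2 and RUNX3, and CBFB, the gene of their shared partner subunit, were examined in HCT116 colon adenocarcinoma cells with and without a cystatin D transgene. They were taken by Ensembl gene identifier (RUNX1 ENSG00000159216, RUNX2 ENSG00000124813, RUNX3 ENSG00000020633, CBFB ENSG00000067955) and were 4 of the 24916 genes in the expression table. The set was chosen by the log2 levels of its genes in the clones and the controls, so these levels are given as a description and without a test. The study profiled total RNA of 4 sublines of HCT116, an established line of human colon carcinoma cells, on 1 Affymetrix array each. The lines with the transgene were clone 9 and clone 20, each a single clone stably expressing CST5, which encodes cystatin D, a cysteine protease inhibitor that cells secrete. The controls were un-transfected HCT116 cells and mock-transfected HCT116 cells, and the sources used here do not say whether the mock line is clonal.

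RUNX proteins bind DNA through their Runt domain, and core binding factor beta, the product of CBFB, does not touch DNA itself but strengthens that binding and protects RUNX proteins from degradation. RUNX1 is required for the formation of blood stem cells, RUNX2 for osteoblasts and bone, and RUNX3 acts in T cells, sensory neurons and the epithelium of the digestive tract. Each RUNX gene is known to be transcribed from a distal and a proximal promoter, which give proteins with different amino-terminal ends. RUNX proteins are known to bind promoters of RUNX genes, which is why promoter sequence is shown first. The motif searched was the RUNX core site in its forms TGTGGT and TGCGGT, on both strands, in RefSeq windows of GRCh38.p14 that reach from 250 bases before a transcription start to 50 after it. Each match was counted, and no match overlapped another in the windows described. RefSeq windows were matched by symbol for 3 of the 4 genes, 5 windows in all, and no window was matched for CBFB. RUNX2 is shown because it is the RUNX gene with the higher value in both clones, and RUNX1 because it had the lower value in both. That reason does not choose between the windows of RUNX2. The one printed belongs to the start farther upstream and holds RUNX motifs. The downstream one, not printed, holds none. Any contrast with RUNX1 in motifs therefore depends on which RUNX2 window is shown. The 250 bases before the start are printed, with RUNX motifs in capitals. RUNX2 lies on the plus strand, with these bases at chr6:45328080-45328329. RUNX1 lies on the minus strand, at chr21:34888700-34888949.
RUNX2, upstream start: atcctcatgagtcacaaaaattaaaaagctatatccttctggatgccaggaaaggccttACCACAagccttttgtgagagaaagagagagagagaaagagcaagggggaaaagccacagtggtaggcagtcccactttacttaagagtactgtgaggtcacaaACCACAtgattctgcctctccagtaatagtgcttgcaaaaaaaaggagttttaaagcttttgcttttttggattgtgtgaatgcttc
RUNX1: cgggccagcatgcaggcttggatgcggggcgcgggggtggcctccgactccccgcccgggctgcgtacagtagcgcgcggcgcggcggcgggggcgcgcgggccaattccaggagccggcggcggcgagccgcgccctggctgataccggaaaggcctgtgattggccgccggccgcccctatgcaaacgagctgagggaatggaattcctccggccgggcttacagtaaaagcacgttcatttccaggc

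The upstream window of RUNX2 held TGTGGT 4 times and TGCGGT once, and the 1 RUNX1 window matched held neither. Which of the gene's promoters that window covers was not examined, so it is not a like-for-like counterpart of the upstream RUNX2 window. Its GC content was 72%, against 42.7% in the upstream and 76% in the downstream window of RUNX2, and 66.3% and 76% in those of RUNX3. All 4 TGTGGT matches in RUNX2 were on the strand opposite to the gene, where they read ACCACA in the printed direction. Counted from the start, they began at bases -191, -87, 17 and 25. Among all 35116 RefSeq windows, 13.1% held TGTGGT at least once, 7.29% held TGCGGT, and 0.125% held TGTGGT 3 or more times. The upstream window of RUNX3, a gene whose level differed little among the 4 lines, held TGTGGT 2 times. The downstream windows of RUNX2 and RUNX3 held neither form. Runs of bases shared between the windows were also sought. The RUNX1 window and the downstream RUNX2 window, which held neither form, shared a run of 16 bases. The longest run, of 18 bases, was shared by the RUNX2 and RUNX3 upstream windows. It contains a pair of TGTGGT sites whose first bases lie 8 apart. It is shown in capitals within 30 bases of each gene, at chr6:45328338-45328367 on the plus strand for RUNX2 and at chr1:24965120-24965149 on the minus strand for RUNX3.
RUNX2, shared run: cacaaaCAACCACAGAACCACAAGtgcggt
RUNX3, shared run: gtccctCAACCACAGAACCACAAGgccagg
The length of run that windows of other genes share was not examined. The run was taken as the longest that these 2 windows share, so both hold it by construction. It was found in no other of the 35116 windows. In RUNX2 it lay at bases 15 to 32 after the start, and in RUNX3 at bases -133 to -116. A match describes the letters and is not a measured binding site. The array table gives 1 value per gene, so transcripts from the distal and proximal promoters were not separated.

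**Figure D1:**
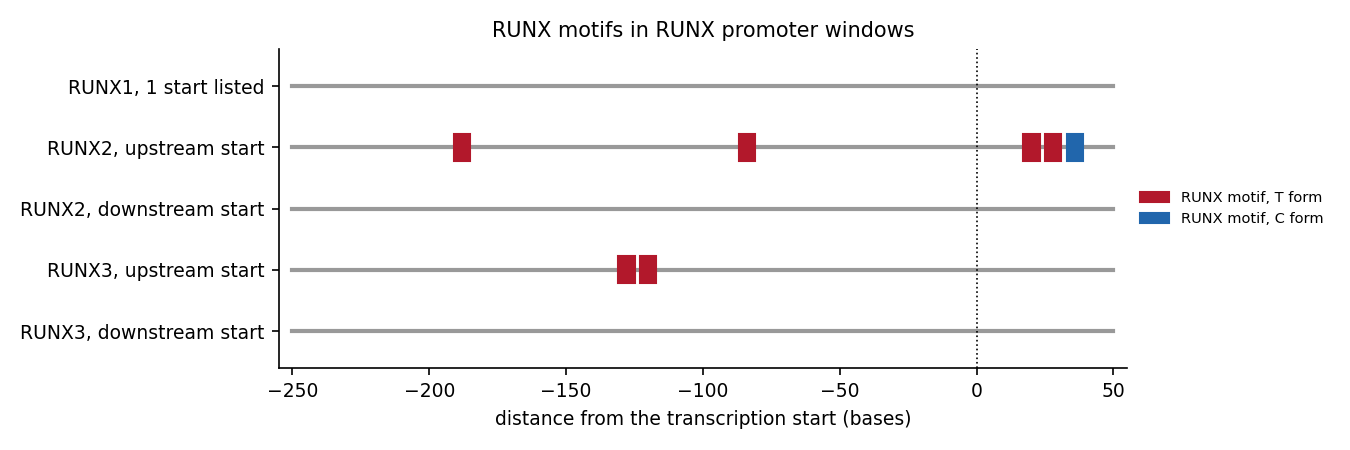
Position of RUNX motifs in the 5 RefSeq promoter windows of RUNX1, RUNX2 and RUNX3, with distance from the transcription start in bases on the horizontal axis (dotted line: the start). Red blocks are TGTGGT and blue blocks TGCGGT on either strand, and they appear in the upstream windows of RUNX2 (4 and 1) and RUNX3 (2).

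The array values are read here as log2 expression, from their range of 1.03 to 12.7, and every fold rests on that reading. Array medians lay between 4.09 and 4.21. A filter on dim signal kept genes above the 40th percentile of an array on at least 2 arrays. It left 15131 genes, against which the 4 genes are set below. All 4 passed it, and they exceeded both the 40th percentile and the median on all 4 arrays. Each value is an average over a culture, so a change in the share of cells with the transcript and a change in the amount per cell cannot be told apart. Both lines with CST5 are clones, so the transgene and the selection of a clone cannot be told apart either.

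RUNX2, the regulator of bone formation, was higher in both clones than in both controls. Its log2 level was 6.11 in clone 9 and 6.16 in clone 20, against 5.02 in un-transfected cells and 4.68 in mock-transfected cells. The clones lay close together and the groups did not overlap. The mean was 6.14 ± 0.034 in the clones and 4.85 ± 0.23 in the controls (SD, n = 2 each). The log2 difference of clones minus controls was 1.29, or 2.44-fold. The smallest of the 4 clone-to-control differences, clone 9 minus un-transfected cells, was 1.10 on the log2 scale (2.14-fold), and the largest, clone 20 minus mock, was 1.48 (2.78-fold). RUNX2 was therefore 1 of the 15 genes, 0.0991% of those above the filter, that were at least 2-fold higher in all 4 differences. In 11 genes the smallest of the 4 differences was greater than in RUNX2. In place on the array, RUNX2 stood at percentile 75.1 in clone 9 and 75.9 in clone 20, against 60.6 in un-transfected cells and 56.9 in mock.

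RUNX1, the blood stem cell regulator, was lower in both clones, with more spread. Its log2 level was 5.64 in clone 9 and 6.11 in clone 20, against 7.01 in un-transfected cells and 6.61 in mock-transfected cells. The groups did not overlap, but the nearest values across them, clone 20 and mock, were about as far apart as the arrays within each group. The mean was 5.88 ± 0.34 in the clones and 6.81 ± 0.28 in the controls (SD, n = 2 each). The log2 difference of clones minus controls was -0.94, so the clones were 1.91-fold lower. Clone 20 minus mock was -0.50 on the log2 scale (1.41-fold lower) and clone 9 minus un-transfected cells was -1.37 (2.59-fold lower). In this direction 0.370% of genes reached 1.5-fold in all 4 differences. RUNX1 did not, since clone 20 minus mock alone fell short. By the group means it was among the 1.78% of genes at least 1.5-fold lower in the clones. Both clones lay below both controls in 25.1% of genes, and both clones lay above both controls, as in RUNX2, in 23.3%. Non-overlap was thus common in the table as a whole, while the size of the mean difference exceeded that of 99.3% of genes for RUNX1 and 99.8% for RUNX2. These shares describe values by which the genes were chosen. Over the whole table limma called 2 genes (0.0132%) at an adjusted p of 0.05, and nothing is read from that test for the genes described here.

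**Figure D2:**
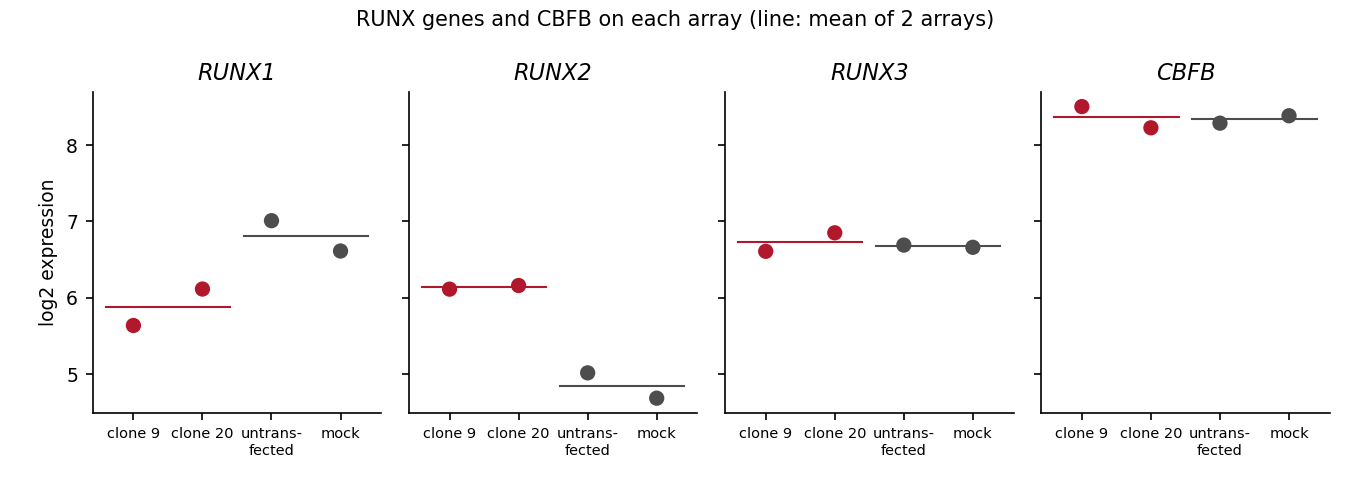
Log2 expression of each gene on each of the 4 arrays, on 1 vertical scale, with clones in red, controls in grey and a line at the mean of each 2 arrays. RUNX2 is near 6.1 in both clones, against 5.02 and 4.68 in the controls, RUNX1 is lower in the clones, and RUNX3 and CBFB differ little. Heights of different genes are not comparable, since they come from different probes.

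RUNX3 and CBFB differed far less between the groups. RUNX3 had log2 levels of 6.61 in clone 9 and 6.85 in clone 20, against 6.69 in un-transfected cells and 6.66 in mock. Both controls lay between the clones. The mean was 6.73 ± 0.17 in the clones and 6.68 ± 0.021 in the controls (SD, n = 2 each). CBFB had log2 levels of 8.50 in clone 9 and 8.23 in clone 20, against 8.29 in un-transfected cells and 8.38 in mock. Here too both controls lay between the clones, in the reverse order, an arrangement found in 16.4% of genes. The mean was 8.36 ± 0.20 in the clones and 8.33 ± 0.069 in the controls (SD, n = 2 each). The log2 differences of the means were 0.054 for RUNX3 and 0.030 for CBFB, smaller than the SD of the clones in each case. After each array was centred on its median they were -0.034 and -0.058, so neither has a settled direction. In size they exceeded 19.8% of genes for RUNX3 and 11.3% for CBFB. With 2 arrays a group, a small change in either gene was not detectable.

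**Figure D3:**
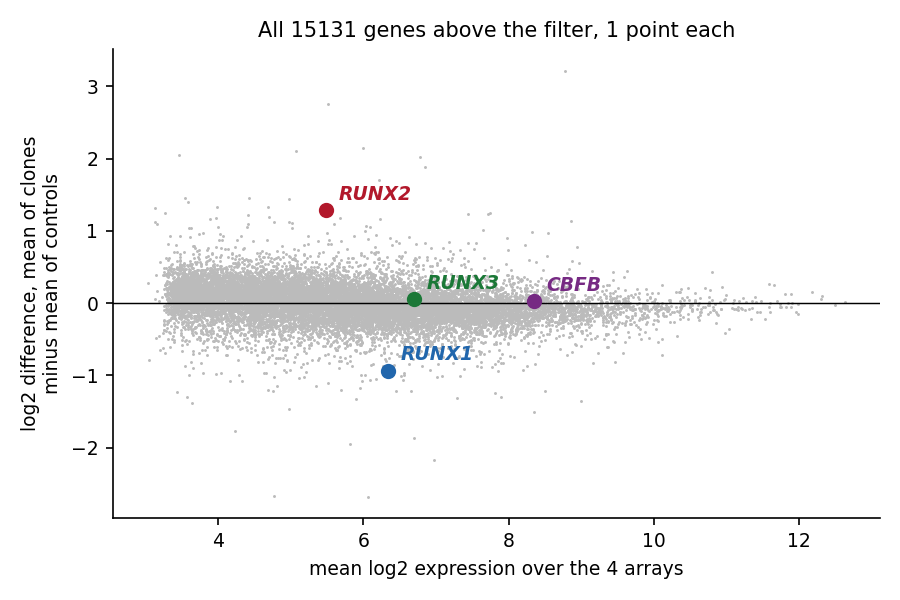
Log2 difference of the mean of the clones minus the mean of the controls (vertical) against mean log2 expression over the 4 arrays (horizontal) for the 15131 genes above the filter, in grey, with the RUNX genes and CBFB in colour. RUNX2 lies above the cloud at 1.29, RUNX1 at its lower edge at -0.94, and RUNX3 and CBFB near 0.

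The single arrays were then set against each other, with no replicate check. RUNX2 was at least 2-fold apart in all 4 clone-to-control pairs. That fold was reached by 1.31% of genes for clone 9 against un-transfected cells, 1.30% for clone 9 against mock, 1.31% for clone 20 against un-transfected cells and 1.16% for clone 20 against mock. RUNX1 was at least 2-fold apart in 1 of them, clone 9 against un-transfected cells, and at least 1.5-fold apart in 3, all but clone 20 against mock. At 1.5-fold the shares of genes in the same order of pairs were 5.60%, 6.37%, 6.13% and 6.89%. In size, the RUNX2 differences of these pairs exceeded those of 99.0% to 99.7% of genes, and the RUNX1 differences those of 89.0% to 99.6%. Clone 9 minus clone 20 was -0.047 for RUNX2 and -0.48 for RUNX1, and these exceeded in size the differences of 16.4% and 90.4% of genes. None of the 4 genes was 1.5-fold apart between the clones, where 5.84% of genes were. Mock minus un-transfected cells was -0.33 for RUNX2 and -0.40 for RUNX1. Neither reached 1.5-fold, as 1.69% of genes did, yet in size they exceeded the differences of 90.7% and 94.4% of genes in that pair. Mock thus lay on the clones' side of un-transfected cells for RUNX1, and on the opposite side for RUNX2. The part of mock transfection in these values was not tested, since each control has 1 array.

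**Figure D4:**
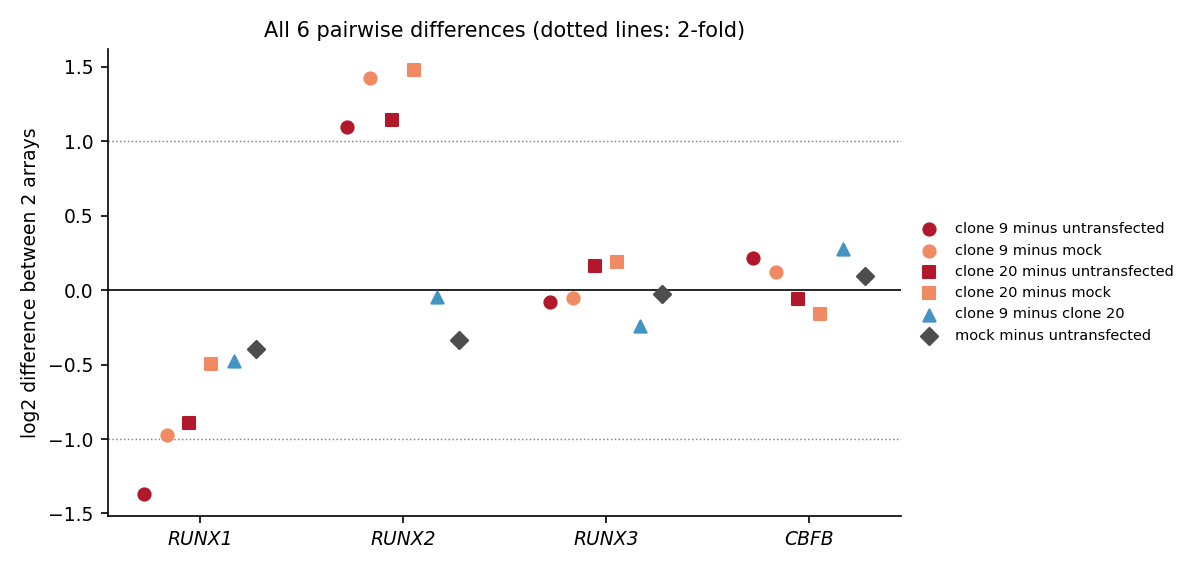
All 6 log2 differences between 2 arrays for each gene, with clone 9 minus a control as circles, clone 20 minus a control as squares, clone 9 minus clone 20 as triangles and mock minus un-transfected as diamonds. The 4 clone-to-control differences of RUNX2 lie between 1.10 and 1.48, above the dotted 2-fold line, and those of RUNX1 between -1.37 and -0.50.

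Differences between genes on the same array do not change when a constant is added to all values of that array, and they were used to follow the balance of the family. The height of such a difference depends on the probes, so only its shift between lines is read. RUNX2 minus RUNX1 was 0.48 in clone 9 and 0.046 in clone 20, against -1.99 in un-transfected cells and -1.93 in mock. The controls were close together, and the nearest clone was 1.97 above the nearer control. The mean was 0.26 ± 0.30 in the clones and -1.96 ± 0.046 in the controls (SD, n = 2 each). That is a shift of 2.22 on the log2 scale (4.66-fold) toward RUNX2. It joins the RUNX2 and RUNX1 differences given above, by which the genes were chosen, and is not a separate result. How many other gene pairs shifted as much was not examined. Against its partner, RUNX2 minus CBFB shifted by 1.26 and RUNX1 minus CBFB by -0.96 (clones minus controls, log2). CBFB itself differed by 0.030, so these shifts nearly repeat the RUNX2 and RUNX1 differences and are not separate results either. The smallest gap between a clone and a control was 0.88 for RUNX2 minus CBFB and -0.34 for RUNX1 minus CBFB. RUNX3 minus CBFB was -1.90 in clone 9 and -1.37 in clone 20, which enclosed -1.60 in un-transfected cells and -1.72 in mock.

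**Figure D5:**
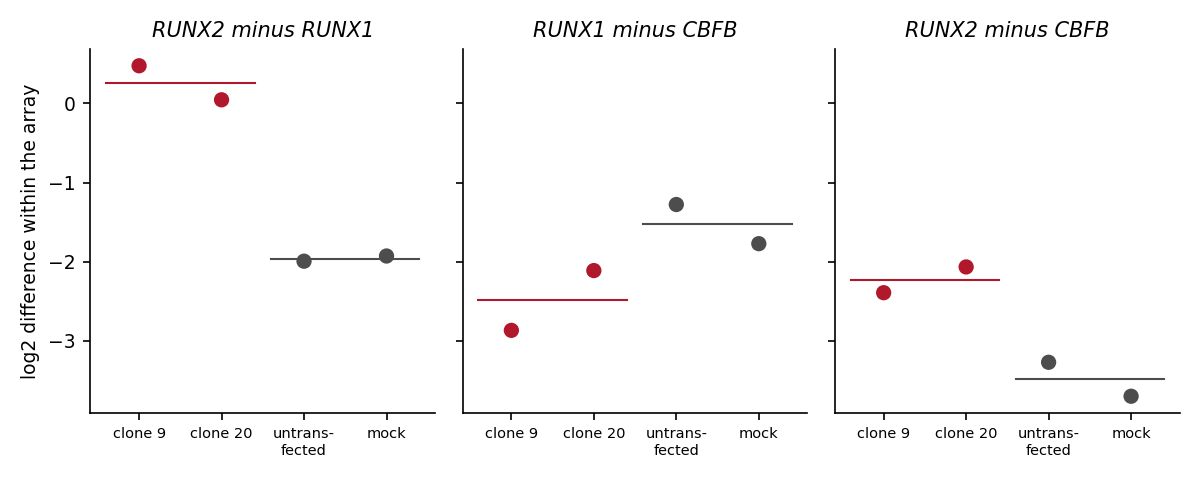
Log2 difference between 2 genes on the same array, for each of the 4 arrays, with clones in red, controls in grey and a line at the mean of each 2 arrays. RUNX2 minus RUNX1 is 0.48 and 0.046 in the clones, against -1.99 and -1.93 in the controls.

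Genes with a like pattern were sought among those above the filter. The measure was the root mean square difference between profiles over the 4 arrays, after each gene's own mean was taken off. The ranking depended on this measure. Pearson correlation kept 1 of the 3 nearest genes of RUNX1 and 0 of those of RUNX2. The nearest to RUNX2 were ENSG00000223089, at 0.099, and ENSG00000178863, at 0.13 on the log2 scale, against 0.65 for RUNX2's own deviation from its mean. ENSG00000223089 had levels of 4.0 in clone 9 and 3.78 in clone 20, against 2.79 in un-transfected cells and 2.5 in mock. Its control values lay below the 40th percentile of their arrays (3.35 and 3.33), so it passed the filter through the clones alone, and its likeness to RUNX2 rests on dim control signal. ENSG00000178863 had levels of 5.81 in clone 9 and 5.58 in clone 20, against 4.41 in un-transfected cells and 4.10 in mock. The nearest to RUNX1 were ENSG00000091409, at 0.064, and ENSG00000228144, at 0.067, against 0.52 for RUNX1's own deviation. ENSG00000228144 was likewise dim in clone 9, at 3.35 against a 40th percentile of 3.41 there. ENSG00000091409 had levels of 7.26 in clone 9 and 7.69 in clone 20, against 8.46 in un-transfected cells and 8.15 in mock, the same order of lines as RUNX1. The sources used here pair these identifiers with no symbol. For the same reason the co-regulators, upstream signals and targets of RUNX proteins, the markers of colon epithelium and of other cells, and CST5 itself were not analysed here.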

How the data were processed

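RNA of 4 HCT116 lines was amplified, labelled with biotin and hybridised to Affymetrix arrays, per the labels' protocols. The authors deposited 1 table of 24916 Ensembl identifiers with 1 column per array, taken here as log2 values, with the log base inferred from their range. The array model, summarisation and normalization have no description in the sources used here. The sorted values of the arrays departed from each other by 0.222 at most. Samples were grouped by the transfection label, 2 clones and 2 controls, and depth does not apply: the number of arrays limits the precision. The symbols of the 4 genes came with the identifiers that define the set. The reference gene table held no Ensembl identifiers (0 rows with one), so none of the 24916 identifiers could be matched to a symbol. For that reason the 6 lists of RUNX partners, signals and targets (137 symbols) and the cell markers were not tested.

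The 4 genes, the lists and the rule for named genes were chosen with earlier results of these data known. That rule named the 4 genes, list genes that changed, and the 3 nearest patterns per gene, of which 2 identifiers in each direction are printed. The limma package 3.58.1 (R 4.3.3; linear models with eBayes and Benjamini-Hochberg adjustment, tested on simulated data) was fitted to all 15131 genes above the filter. Values were computed with Python 3.11.15 and pandas 2.3.3, and drawn with matplotlib 3.10.9. The orientation of promoter windows was checked where windows on opposite strands overlap, and 2750 of 2750 were reverse complements. Alternatives were other scalings, filters and priors, and leaving out each array.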

Additional observations from a re-analysis of the deposited data

Results flagged for a closer look

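RUNX3 and CBFB were picked out because the clones lay on opposite sides of both controls. Clone 9 minus clone 20 was -0.24 on the log2 scale for RUNX3, with clone 9 below and clone 20 above both controls. It was 0.28 for CBFB, with clone 9 above and clone 20 below them. Whether the clones differ was not tested, since each has 1 array, and 16.4% of genes above the filter had both controls between the clones. Both genes kept this arrangement after median centring, and neither did after quantile normalization or cyclic loess.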

How the results depend on the processing

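Under 3 other scalings each gene's difference moved by less than 1 SD, pooled over the clones and the controls. That SD includes differences between lines, since no line has a replicate array. With 2 arrays a group, leaving out 1 cannot move it by more than that SD, so the ranges with an array left out are given as values and say nothing about stability. RUNX2's log2 difference (1.29) was 1.20 after median centring, 1.29 after quantile normalization and 1.27 after cyclic loess, and 1.12 to 1.45 with an array left out. RUNX1's (-0.94) was -1.02, -0.89 and -0.90 under the same scalings, and -1.17 to -0.70 with an array left out. Neither gene's groups overlapped under any of the 3 scalings. RUNX3's (0.054) was -0.034, 0.13 and 0.11, and -0.067 to 0.18 with an array left out. CBFB's (0.030) was -0.058, 0.11 and 0.13, and -0.11 to 0.17.

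Over the whole table limma called 2 genes at an adjusted p of 0.05 (0.0132%), also under the 7 alternatives that keep all arrays, and 0 with any array left out, where 784 to 2743 had an unadjusted p under 0.05. The lone array is then assumed to vary like the other group. With Pearson correlation in place of the root mean square difference, 1 of the 3 nearest genes of RUNX1 and 0 of those of RUNX2, RUNX3 and CBFB were again among the nearest 3. Over 4 arrays 80 to 161 genes exceeded an r of 0.99 with each gene. The list genes and their 2-fold alternative were not run, since identifiers had no symbols. No paired analysis was possible because no replicate number links a clone to a control. Background signal was not measured, which limits dim genes.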
